A study of Rattus norvegicus with 9 samples.

Results

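The 10 genes described here encode tubulins and proteins that bind them or microtubules, measured in cultures of rat hippocampal neurons. They were 2 alpha-tubulins (Tuba1a and Tuba1b), 4 beta-tubulins (Tubb2a, Tubb2b, Tubb3 and Tubb5), 3 microtubule-associated proteins (Map1b, Map2 and Mapt) and the tubulin-binding protein stathmin (Stmn1). They were picked by symbol out of the 34092 genes of the expression table as abundant cytoskeleton genes, so that their high level is a property of the choice and was not tested. All 10 passed the filter on low values used for the tests.

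Microtubules are hollow polymers of paired alpha- and beta-tubulin, and they carry transport along axons and dendrites and give both their shape. Neurons express several tubulin genes at once, and the proteins differ mainly in their C-terminal tails, where tubulin is modified and bound by its partners. MAP2 binds microtubules in dendrites and the cell body, tau (the product of Mapt) binds them mainly in axons, and MAP1B is best known from growing axons. Stathmin acts the other way, holding free tubulin pairs and favouring the shortening of microtubules.

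The cultures were primary hippocampal neurons prepared from wild-type rat foetuses at embryonic day 17. At 7 days in vitro they were incubated for 24 h with 1 nM human NPCT or with 1 nM human PCT. The remaining group (Control) is called vehicle here, and its time and day in vitro are not stated in the sources used here. PCT is procalcitonin, the precursor of the hormone calcitonin, and NPCT is aminoprocalcitonin, its amino-terminal part. Each of the 3 groups had 3 poly(A) RNA libraries, and the study asked with them how the 2 peptides act on the neuronal transcriptome. The methods speak of pooled triplicates and the labels of 3 replicates per group, so the p-values below measure only the spread between these libraries.

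The libraries held between 13573056 and 17211642 fragments, and each of the 10 genes had at least 9481 fragments in every library. Counting error was therefore at most 1.03% of a level. Neuronal markers were present in all libraries, with all 12 listed genes above the filter, but so were all 8 astrocyte markers, among them Gfap at a mean of 776 FPKM in the controls, and all 9 markers of the oligodendrocyte lineage. PCT replicate 3 and, by less, NPCT replicate 3 stood apart from their groups. The fragments of PCT replicate 3 differed from those of PCT replicates 1 and 2 with a chi-square per degree of freedom of 21.6 and 18.9, against 6.38 between replicates 1 and 2 and 4.16 to 4.97 among the controls. For NPCT replicate 3 the values were 10.6 and 10.8, against 4.38 between NPCT replicates 1 and 2. In bulk RNA, fewer cells of a type and less RNA per cell cannot be told apart.

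Levels are given as FPKM, fragments per kilobase of gene length normalized for the library, which can be compared between genes. Tuba1a was the most abundant of the 10, with a mean of 2254 FPKM over the 9 libraries, which placed it 11 among all genes of the table. Tubb2b followed at 1229 FPKM, Tubb5 at 929, Tubb3 at 687, Tuba1b at 503, Stmn1 at 499, Map1b at 392, Tubb2a at 283, Mapt at 249.5 and Map2 at 172, the last at rank 351. The order from Tuba1a down to Tuba1b was the same in all 9 libraries, and the ranges of neighbouring genes did not overlap. Tuba1b and Stmn1 did not differ beyond their spread, since their ranges overlapped and Tuba1b was the higher in 7 of 9 libraries. The ranges of Map1b and Tubb2a also overlapped, as did those of Tubb2a and Mapt, whose order held in 9 and 8 libraries. Mapt was above Map2 in all 9.

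**Figure D1:**
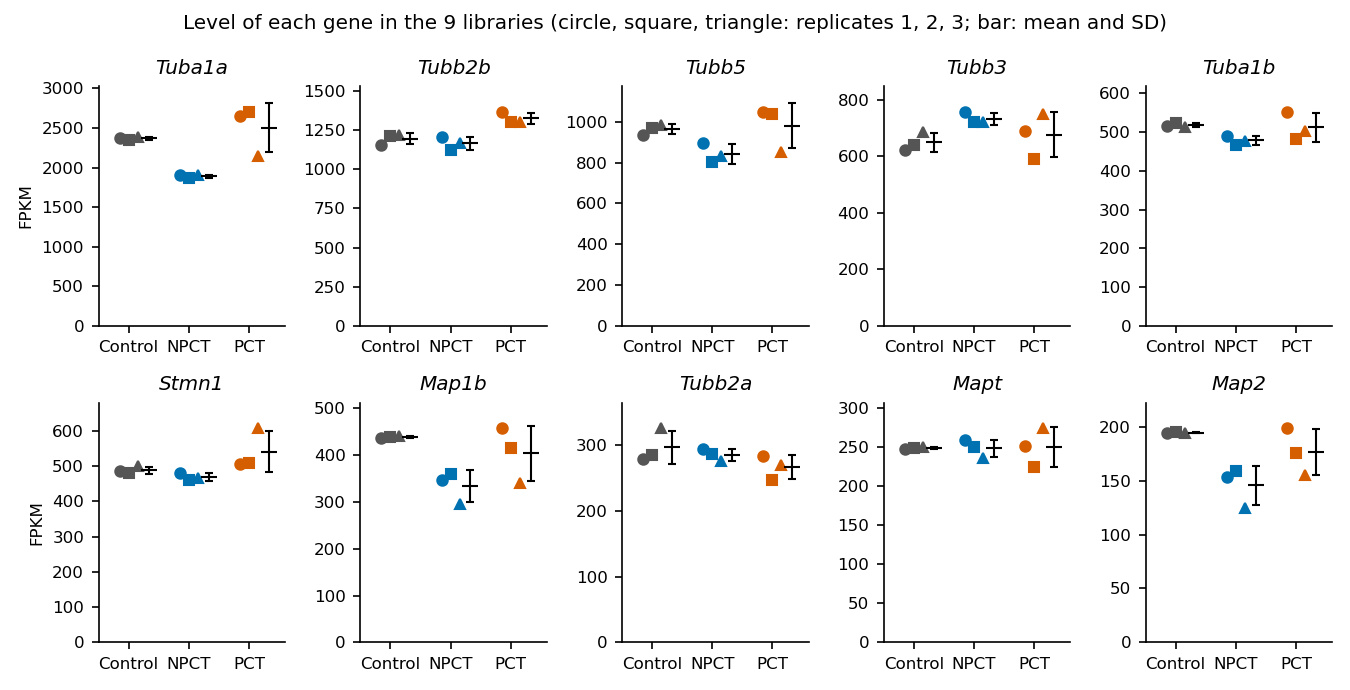
Level in FPKM (vertical axes, each from 0) of each of the 10 genes in the 9 libraries; circles, squares and triangles are replicates 1, 2 and 3, and bars give the group mean and SD (n = 3). The 3 NPCT libraries lie below all controls for Tuba1a, Tuba1b, Tubb5, Map1b and Map2 and above them for Tubb3, and PCT replicate 3 lies outside the range of the other PCT libraries in 7 panels, a share close to that of all genes.

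Among the alpha-tubulins, Tuba1a had its 3 lowest levels in the NPCT libraries. Tuba1a (ENSRNOG00000060728, chr7:140637287-140640953, minus strand, Rnor_6.0) encodes the main alpha-tubulin of young neurons. It was at 2373, 2343 and 2388 FPKM in the controls, at 1906, 1870.2 and 1902 FPKM with NPCT and at 2655, 2707 and 2144.5 FPKM with PCT. The NPCT libraries lay close together and below the 6 others, whereas PCT replicates 1 and 2 lay above every control and PCT replicate 3 below every control. Against vehicle, the log2 difference of NPCT was -0.32 ± 0.09 (SE, n = 3), or 0.799 times the control level, with a limma adjusted p of 0.0725. With PCT it was 0.07 ± 0.09 (adjusted p = 0.754), with a 95% interval from -0.14 to 0.29. NPCT against PCT gave -0.39 ± 0.09, with an adjusted p of 0.0268.

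Tuba1b (ENSRNOG00000053468, chr7:140614752-140617721, minus strand) is an alpha-tubulin made in most cell types and lies beside Tuba1a on the chromosome. Its levels were 515, 525 and 514 FPKM with vehicle, 489.7, 468 and 478 FPKM with NPCT and 553, 482 and 502 FPKM with PCT. NPCT again lay below every control, but by less than for Tuba1a, with a log2 difference of -0.11 ± 0.06 (adjusted p = 0.258). The PCT libraries spread to both sides of the controls, with a log2 difference of -0.02 ± 0.06 (adjusted p = 0.922). The coding sequences of Tuba1a and Tuba1b are nearly alike, as are those of Tubb2a and Tubb2b, and how fragments that match both were treated is not given in the sources used here, so the split within each pair is uncertain.

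The 4 beta-tubulins had unlike patterns. Tubb2b (ENSRNOG00000017445, chr17:31441630-31482759, plus strand), a beta-tubulin needed for the migration of cortical neurons, was at 1155, 1212 and 1219 FPKM in the controls and at 1207, 1121 and 1168 FPKM with NPCT. With PCT it was at 1368, 1303 and 1304 FPKM, so that all 3 PCT libraries lay above the 6 others. The log2 difference of PCT from vehicle was 0.15 ± 0.06, with an unadjusted p of 0.0417 and an adjusted p of 0.238, and that of NPCT was -0.04 ± 0.06 (adjusted p = 0.726). PCT replicate 3 lay between replicates 1 and 2 here.

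Tubb2a (ENSRNOG00000017558, chr17:31493107-31498651, plus strand), the neighbouring copy of Tubb2b, did not share that pattern. It was at 279.5, 285 and 326 FPKM with vehicle, at 294, 286 and 275 FPKM with NPCT and at 284, 247 and 269.6 FPKM with PCT. All groups overlapped, and its log2 differences were -0.05 ± 0.08 with NPCT (adjusted p = 0.673) and -0.15 ± 0.08 with PCT (adjusted p = 0.335).

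Tubb3 (ENSRNOG00000017209, chr19:56220755-56229813, plus strand), the beta-tubulin used as a marker of neurons, was the only one of the 10 genes with all NPCT libraries above all controls. Its levels were 623, 640.4 and 686 FPKM with vehicle, 758, 720.2 and 720.4 FPKM with NPCT and 691, 592 and 749.5 FPKM with PCT. The PCT libraries reached from below the lowest control to near the highest NPCT library. The log2 difference of NPCT was 0.17 ± 0.09 (adjusted p = 0.225), with an interval from -0.03 to 0.38, and that of PCT was 0.05 ± 0.09 (adjusted p = 0.807).

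Tubb5 (ENSRNOG00000061216, chr20:3422461-3426371, plus strand), a beta-tubulin of dividing as well as neural cells, was at 937, 969.8 and 986 FPKM with vehicle and at 896, 802 and 830.4 FPKM with NPCT. With PCT it was at 1049.9, 1039 and 853 FPKM. NPCT lay below every control, and the PCT libraries split in the manner of Tuba1a, replicates 1 and 2 above the controls and replicate 3 below. The log2 difference of NPCT from vehicle was -0.20 ± 0.09 (adjusted p = 0.186), and that of PCT was 0.02 ± 0.09 (adjusted p = 0.945).

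Of the microtubule-associated proteins, Map2 and Map1b had the largest log2 differences between NPCT and vehicle of the 10 genes, while Mapt had the smallest. That order did not hold without NPCT replicate 3, where Tuba1a was at -0.33 and both Map1b and Map2 were at -0.32, nor with the trend with gene length removed, where Map1b was at -0.30 and Tuba1a and Map2 were at -0.33. Map2 (ENSRNOG00000011841, chr9:73319710-73462972, plus strand), whose protein marks dendrites, was at 194, 195 and 195 FPKM in the controls and at 153, 159 and 125 FPKM with NPCT. With PCT it was at 199, 176 and 156 FPKM. Every NPCT library lay below every control and NPCT replicate 3 was the lowest of the 9, but PCT replicate 3 reached into the NPCT range. The log2 difference of NPCT from vehicle was -0.42 ± 0.11, or 0.745 times the control level, with an unadjusted p of 0.00337 and an adjusted p of 0.0590. With PCT it was -0.15 ± 0.11 (adjusted p = 0.526).

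Map1b (ENSRNOG00000017428, chr2:29675391-29768750, minus strand) was at 437, 438 and 442 FPKM with vehicle, at 346, 359 and 296 FPKM with NPCT and at 457, 414 and 340.2 FPKM with PCT. The picture was that of Map2, with NPCT below all controls and PCT replicate 3 among the NPCT libraries. The log2 difference of NPCT was -0.40 ± 0.11 (adjusted p = 0.0657), or 0.758 times the control level, and that of PCT was -0.13 ± 0.11 (adjusted p = 0.595). Map1b stood to Map2 at 2.24 to 2.27 in the controls, 2.26 to 2.36 with NPCT and 2.19 to 2.35 with PCT, a ratio of FPKM levels that varied little between the 9 libraries.

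Mapt (ENSRNOG00000005133, chr10:92288910-92386517, plus strand) was at 248, 249 and 250.2 FPKM with vehicle, at 259, 251 and 237 FPKM with NPCT and at 252, 225 and 275 FPKM with PCT. Both treated groups spread to either side of the narrow control range. Its log2 differences were -0.0035 ± 0.08 with NPCT (adjusted p = 0.980), with an interval from -0.17 to 0.17, and 0.0021 ± 0.08 with PCT (adjusted p = 0.994). The ratio of Mapt to Map2 levels was 1.28 to 1.29 in the controls and 1.58 to 1.89 with NPCT, without overlap. With PCT it was 1.27, 1.28 and 1.77, the highest in replicate 3.

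Stmn1 (ENSRNOG00000016810, chr5:152680407-152686806, plus strand) was at 486, 479 and 499 FPKM with vehicle, at 480.3, 459.8 and 466 FPKM with NPCT and at 506, 507 and 607 FPKM with PCT. All PCT libraries were above the 6 others, by little in replicates 1 and 2 and by more in replicate 3, while NPCT and vehicle overlapped. The log2 difference was -0.06 ± 0.08 with NPCT (adjusted p = 0.642) and 0.14 ± 0.08 with PCT (adjusted p = 0.370). Without PCT replicate 3 the latter was 0.05 (adjusted p = 0.572).

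**Figure D2:**
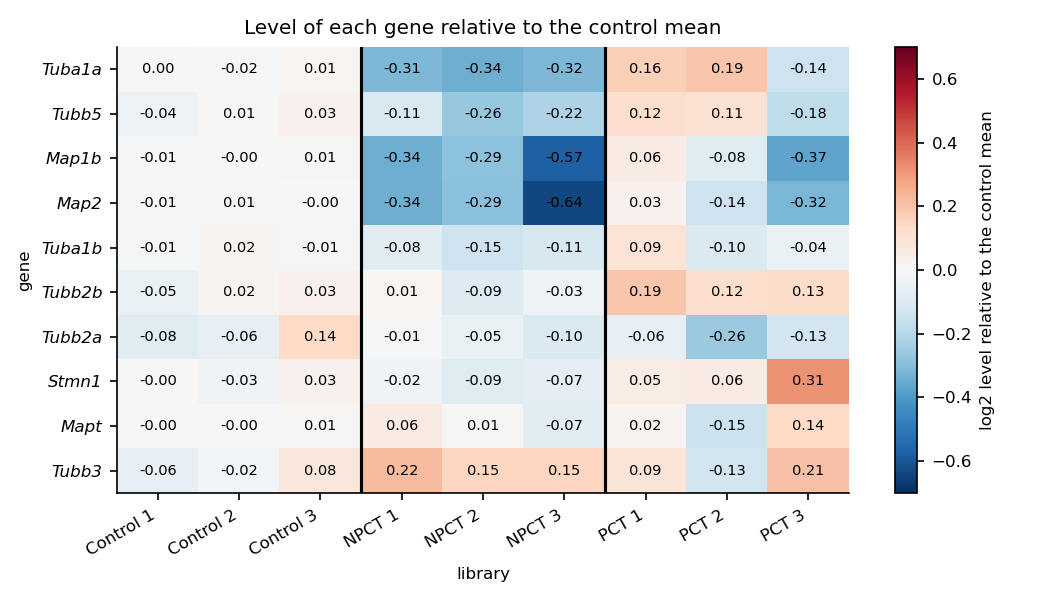
Log2 level of each gene (rows) in each library (columns) relative to the mean of the 3 controls; blue is lower and red higher, and the number in each cell is the value plotted. The NPCT columns are blue from Tuba1a to Tuba1b and red for Tubb3, with Map2 in NPCT replicate 3 the lowest cell at -0.64, and the column of PCT replicate 3 differs from those of PCT replicates 1 and 2.

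Upstream sequence is shown for 4 of the genes, Tuba1a and Tubb3 because their NPCT libraries lay on opposite sides of the controls, and Map1b and Map2 because their levels went together. RefSeq entries on build GRCr8 were at hand for 9 of the 10 genes, not for Mapt, each with 250 bases before the annotated start and 50 from it on. The 250 bases before the start are printed 5′ to 3′ on the strand of the gene, with capitals for matches on either strand to the TATA box (TATAA), the CCAAT box, an E-box (CACGTG) and a GC box (GGGCGG). They lie at chr7:131995820-131996069 for Tuba1a (minus strand), chr19:68365437-68365686 for Tubb3 (plus), chr2:32644472-32644721 for Map1b (minus) and chr9:75346440-75346689 for Map2 (plus).
Tuba1a: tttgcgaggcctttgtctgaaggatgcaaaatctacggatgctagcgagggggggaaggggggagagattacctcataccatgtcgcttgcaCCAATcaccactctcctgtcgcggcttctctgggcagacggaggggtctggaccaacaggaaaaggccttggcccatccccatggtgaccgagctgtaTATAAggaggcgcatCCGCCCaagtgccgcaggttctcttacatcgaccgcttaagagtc
Tubb3: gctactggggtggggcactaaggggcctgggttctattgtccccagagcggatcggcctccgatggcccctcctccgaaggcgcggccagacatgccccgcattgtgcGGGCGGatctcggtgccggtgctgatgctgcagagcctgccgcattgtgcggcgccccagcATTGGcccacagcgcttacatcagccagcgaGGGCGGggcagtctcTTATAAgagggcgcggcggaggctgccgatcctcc
Map1b: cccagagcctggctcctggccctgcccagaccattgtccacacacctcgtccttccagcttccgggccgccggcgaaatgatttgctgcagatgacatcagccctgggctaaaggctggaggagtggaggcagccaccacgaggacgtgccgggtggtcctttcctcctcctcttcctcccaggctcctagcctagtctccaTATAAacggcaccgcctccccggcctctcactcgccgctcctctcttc
Map2: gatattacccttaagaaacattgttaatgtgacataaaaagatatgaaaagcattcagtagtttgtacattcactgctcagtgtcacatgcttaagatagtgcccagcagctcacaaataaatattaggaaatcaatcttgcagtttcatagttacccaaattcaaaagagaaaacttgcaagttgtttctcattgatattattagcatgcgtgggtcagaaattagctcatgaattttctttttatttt

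Tuba1a, Tubb3 and Map1b each held the letters TATAA, which began 60, 34 and 48 bases before the start on the plus strand of the gene. In Tubb3 the same letters overlap a match on the other strand. Tuba1a and Tubb3 also held CCAAT, at 158 bases before the start on the plus strand and 81 on the minus strand, and GGGCGG. The Map2 window held none of the 4 motifs and had a GC content of 33.3%, against 58.3% to 75.7% in the other 8 genes and a median of 51.7% over all 33469 promoters of the RefSeq table. Of the 9 genes, 4 held the TATA box, 6 the CCAAT box, 2 the E-box and 6 the GC box, and of all promoters of that length 26.2%, 37.5%, 6.42% and 33.1% did. Map1b and Map2, the pair with the most alike levels, shared none of these motifs in the windows shown. The matches describe letters only. The first entry of each gene was used, and whether transcripts of these cultures begin at its annotated start was not tested. The Map2 window may therefore not be the promoter in use here.

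Across all 3 comparisons, 0 of the 10 genes were DEGs, here a gene whose fold change exceeded 1.5 with a limma adjusted p no greater than 0.05. Among all 15958 genes tested, 35 were DEGs with NPCT against vehicle (0.219%), 368 with PCT against vehicle (2.31%) and 919 between NPCT and PCT (5.76%). limma-voom on fragments recovered from the FPKM values also called 0 of the 10 genes as DEGs in each comparison. At any fold change, limma's adjusted p was 0.05 or less for 0 members with NPCT against vehicle, beside 0.47% of all genes, for 0 with PCT against vehicle, beside 4.2%, and for 1 between NPCT and PCT, beside 16.3%. The comparisons with vehicle share the 3 control libraries.

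With NPCT against vehicle, 1 of the 10 genes, Tubb3, had a log2 difference above 0, beside 50.8% of all genes, with a median of -0.09 over the 10 and 0.01 over all genes tested. An unadjusted p under 0.05 was reached by 3, Tuba1a, Map1b and Map2, each lower with NPCT, beside 14.9% of all genes lower at that threshold. The NPCT and control libraries did not overlap for 6 of the 10, beside 40.3% of all genes tested. They were Tuba1a, Tuba1b, Tubb5, Map1b and Map2 below the controls and Tubb3 above them.

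Whether these genes passed the adjusted threshold turned on which libraries and which model set the spread. In a fit of the NPCT and control libraries alone, Tuba1a (adjusted p = 0.00823), Map1b (0.0151) and Map2 (0.0208) passed, 3 of the 10 beside 18.8% of all genes. limma-voom gave 0.0344, 0.0361 and 0.0319, beside 9.49% of all genes passing. Without PCT replicate 3, a library outside this comparison that enters only through the common estimate of the spread, the 3 passed with 0.00615, 0.0116 and 0.0160, and Tubb5 passed with 0.0412, beside 19.3% of all genes. Without PCT replicate 1, Map2 passed with 0.0494 (4.47% of all genes), and after quantile normalization Tuba1a passed with 0.0456 (3.77%). With any control or NPCT library left out, none of the 10 passed.

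The 3 longest of the 10 genes were Map1b at 11866 bases, Map2 at 10002 and Mapt at 8203, where the median gene tested had 2136. The levels of all genes leaned with gene length by library. The log2 level changed per doubling of length by -0.0182 to -0.0263 in the 3 NPCT libraries and by -0.0281 in PCT replicate 3, against 0.0214 and 0.0270 in PCT replicates 1 and 2 and -0.000665 to 0.0285 in the controls. With that trend removed, the log2 difference of NPCT from vehicle was -0.30 for Map1b (adjusted p = 0.0961), -0.33 for Map2 (0.0823) and 0.08 for Mapt (0.616), whereas Tuba1a, with 1617 bases, stayed at -0.33 (0.0768).

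With PCT against vehicle, 6 of the 10 genes had a log2 difference above 0, beside 51% of all genes, with a median of 0.0103 beside 0.0046 over all genes. Tubb2b alone had an unadjusted p under 0.05, higher with PCT, beside 10.1% of all genes higher at that threshold. The PCT and control libraries did not overlap for 2 genes, Tubb2b and Stmn1, both higher with PCT, beside 24.9% of all genes. The intervals of all 10 differences lay between -0.39 and 0.31. Without PCT replicate 3, the log2 difference of PCT from vehicle was 0.18 for Tuba1a (adjusted p = 0.108), 0.12 for Tubb5 (0.328), -0.01 for Map1b (0.959), -0.06 for Map2 (0.812), -0.07 for Mapt (0.610) and -0.02 for Tubb3 (0.905). Tuba1b was then at -0.0049, and Tubb2a and Tubb2b were at -0.16 and 0.16, close to their values with it. With any 1 library left out, Map1b ranged from -0.22 to -0.01 and Map2 from -0.23 to -0.06. Tubb2a ranged from -0.20 to -0.08 and Tuba1a from 0.01 to 0.18.

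**Figure D3:**
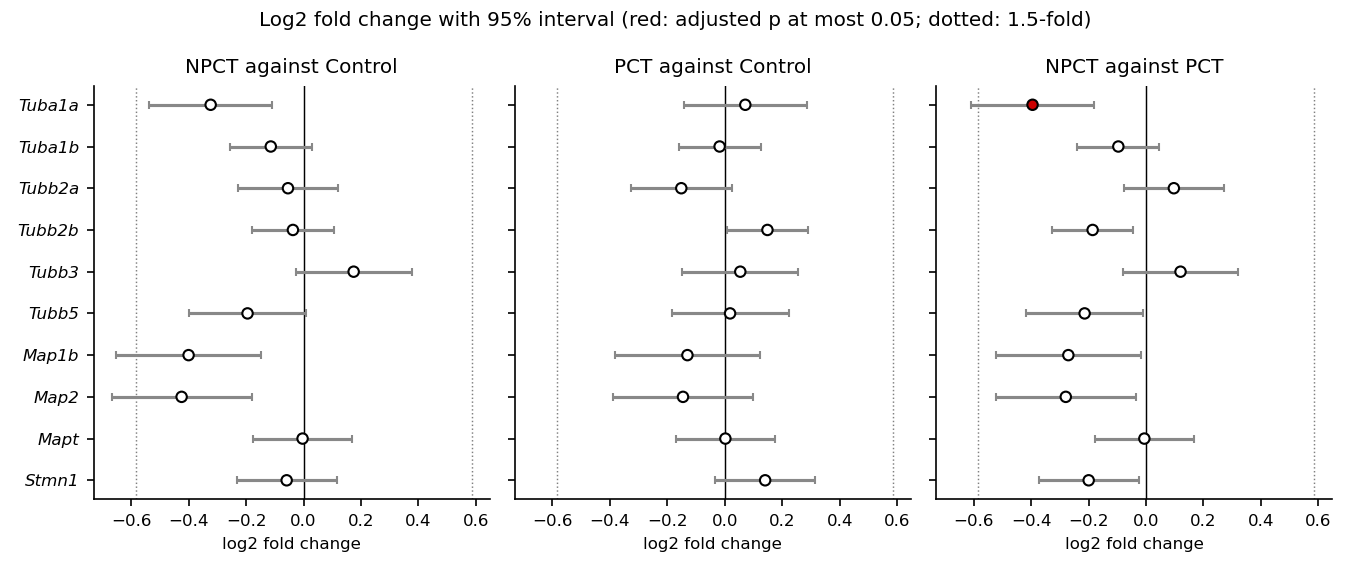
Log2 fold change (horizontal axes) of each of the 10 genes in the 3 comparisons, with its 95% interval from limma; dotted lines mark a 1.5-fold change and red an adjusted p of at most 0.05. No point lies beyond the dotted lines, and Tuba1a with NPCT against PCT, at -0.39, is the only red point.

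NPCT against PCT set the 2 peptides side by side at the same dose and time. Tuba1a was the only member with an adjusted p of at most 0.05, lower with NPCT, with group means of 1893 ± 19.6 and 2502 ± 311 FPKM (SD, n = 3). A further 5 had an unadjusted p under 0.05, all lower with NPCT, and the 6 stand beside 17.5% of all genes lower at that threshold. They were Tubb2b at -0.19 ± 0.06 (adjusted p = 0.0749), Tubb5 at -0.21 ± 0.09 (0.136), Stmn1 at -0.20 ± 0.08 (0.108), Map1b at -0.27 ± 0.11 (0.128) and Map2 at -0.28 ± 0.11 (0.108). Without NPCT replicate 3, Map1b was at -0.19 and Map2 at -0.17 (adjusted p = 0.316 and 0.272). Without PCT replicate 3, Stmn1 was at -0.11 (0.105) and Tubb3 at 0.20 (0.0879). Groups did not overlap for Tuba1a, Tubb2b and Stmn1, 3 of the 10 beside 33.4% of all genes. Only Tubb2a and Tubb3, 2 of the 10, had a difference above 0, beside 48.9% of all genes. Tuba1b, Tubb2a, Tubb3 and Mapt had differences of -0.10, 0.10, 0.12 and -0.01, with intervals that held 0. With any 1 library left out, Tubb3 ranged from 0.03 to 0.20, with adjusted p between 0.0879 and 0.858. Tuba1b then ranged from -0.14 to -0.04, Tubb2a from 0.04 to 0.14 and Map1b from -0.39 to -0.18.

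The call of Tuba1a was lost in a fit of the NPCT and PCT libraries alone (adjusted p = 0.104), without a filter on low values (0.125), and without any single NPCT library, PCT replicate 1 or 2, or control replicate 1 or 2, where it lay between 0.0513 and 0.0843. limma-voom added Tubb2b (0.0268) and quantile normalization Stmn1 (0.0315) to the members below 0.05, beside 18% and 15.3% of all genes. The log2 difference of Tuba1a was between -0.31 and -0.50 in all alternatives. Without PCT replicate 3, 5 members passed, all lower with NPCT: Tuba1a at -0.50 (0.000896), Tubb5 at -0.31 (0.00759), Map1b at -0.39 (0.0118), Map2 at -0.37 (0.0274) and Tubb2b at -0.20 (0.0374). In that fit 29.1% of all genes passed, against 16.3% with all libraries.

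PCT replicate 3 lay outside the range of PCT replicates 1 and 2 for 7 of the 10 genes, a share close to the 76.1% of all genes tested. Against their mean it was lower by log2 differences of -0.32 for Tuba1a, -0.29 for Tubb5, -0.35 for Map1b and -0.26 for Map2. It was higher by 0.23 for Tubb3, 0.21 for Mapt and 0.26 for Stmn1. The first 4 of these genes were below all controls in that library, and the other 3 above all controls.

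The make-up of the tubulin transcripts set the NPCT libraries apart from the controls. Tuba1a made up 39.0% to 40.3% of the summed FPKM of the 6 tubulin genes in the controls and 34.3% to 35.5% with NPCT. With PCT it made up 40.2%, 42.5% and, in replicate 3, 36.8%. The share of Tubb3 was 10.6% to 11.2% in the controls and 13.4% to 13.7% with NPCT, and 9.29% to 12.9% with PCT. Shares of a sum are tied to each other, so that a lower share of Tuba1a raises those of the rest.

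**Figure D4:**
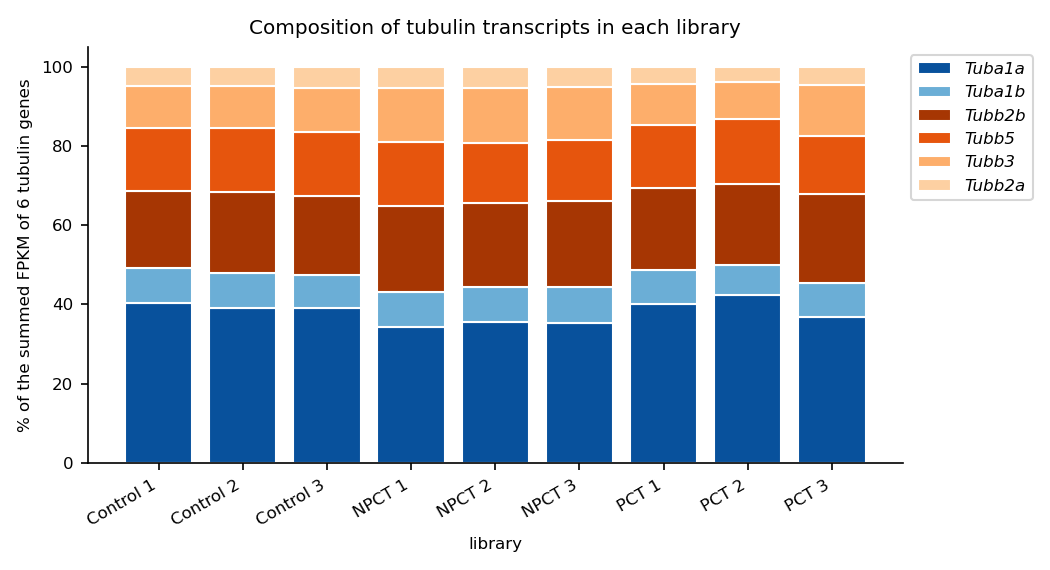
Share in percent of the summed FPKM of the 6 tubulin genes (vertical axis) that each gene makes up in each of the 9 libraries. The Tuba1a segment at the bottom is at most 35.5% in the NPCT libraries and at least 39.0% in the controls, and the Tubb3 segment is at least 13.4% with NPCT and at most 11.2% in the controls.

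The 2 alpha-tubulins together stood to the 4 beta-tubulins at 0.902 to 0.965 in the controls, at 0.759 to 0.798 with NPCT and at 0.833 to 1.00 with PCT. Their summed level was 2886 ± 17.3 FPKM with vehicle and 2371 ± 29.7 FPKM with NPCT (SD, n = 3), while that of the beta-tubulins was 3106 ± 111 and 3026 ± 116 FPKM. The alpha-tubulin sums did not overlap between these groups, which follows from both genes lying below all controls, and the beta-tubulin sums did.

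Tuba1a to Tuba1b was 4.47 to 4.65 with vehicle, 3.89 to 3.997 with NPCT and 4.27 to 5.62 with PCT. Tubb3 to Tubb5 was 0.660 to 0.696 with vehicle, 0.846 to 0.898 with NPCT and 0.570 to 0.879 with PCT. The lack of overlap between vehicle and NPCT follows from Tubb3 lying above all controls and Tubb5 below them. Tubb2b to Tubb2a overlapped between vehicle and NPCT, at 3.74 to 4.26 and 3.91 to 4.24, and was above both with PCT, at 4.81 to 5.27. Together the 10 genes took 2.06% to 2.12% of all fragments in the controls, 1.75% to 1.93% with NPCT and 1.98% to 2.18% with PCT.

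Among the genes whose log2 levels were most like that of Tuba1a over the 9 libraries were Cdc26, Rab10, Omg and Srgap1, with a Pearson r of 0.99 each as a measure of likeness. For Map2 they were Nwd2, Fgd4, Dmxl1, Atrx and Runx1t1, also at 0.99. Among the 10 genes themselves the most alike were Map1b and Map2 (0.99), then Tuba1a and Tubb5 (0.93). Tuba1a and Tubb3 had the value farthest below 0 (-0.74). The 9 libraries fall in 3 groups and differ in their trend with gene length, so these values only describe.

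The other genes of the microtubule system were taken from 11 lists with 113 genes, of which 103 were tested. They included further tubulins, structural proteins, severing and modifying enzymes, folding cofactors and motors. With NPCT against vehicle, 0 of the 103 were DEGs (0.219% of all genes) and 1 had an adjusted p of at most 0.05 (0.47% of all genes), while 43 had an unadjusted p under 0.05 (29.3% of all genes) and limma-voom gave 19 with an adjusted p of 0.05 or less (9.49% of all genes). With PCT against vehicle, 1 was a DEG (2.31% of all genes) and 2 had an adjusted p of at most 0.05, or 1.94% beside 4.2% of all genes. Between NPCT and PCT, 2 were DEGs (5.76% of all genes) and 21 passed at any fold change, 9 higher and 12 lower with NPCT, or 20.4% beside 16.3% of all genes. The 21 became 2 in a fit of the NPCT and PCT libraries alone (4.78% of all genes), 6 to 10 without any single NPCT library or PCT replicate 1 or 2 (6.24% to 9% of all genes), and 40 without PCT replicate 3 (29.1% of all genes), alternatives that were added after the values were seen. The median log2 differences over the 103 were -0.01, -0.01 and -0.03.

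The single genes of these counts were chosen after their values were seen. Tbcc, a cofactor that helps tubulin fold and pair, was at 13.3 ± 0.74 FPKM with vehicle and at 19.9 ± 2.20 FPKM with NPCT, a log2 difference of 0.57 (adjusted p = 0.0493). It passed in 9 of 18 alternatives and in none that left out a control or NPCT library, with adjusted p between 0.00642 and 0.169. It also did not pass without PCT replicate 2 (0.0567), without a filter on low values (0.0661) or with the length trend removed (0.0513). Tubb6, a further beta-tubulin, was at 77.9 ± 6.84 FPKM with vehicle and at 114 ± 15.5 FPKM with PCT, a log2 difference of 0.54 (adjusted p = 0.0297, from 0.0125 to 0.107 over the alternatives). It did not pass without control replicate 1 (0.0929), 2 (0.0692) or 3 (0.107), PCT replicate 2 (0.0937) or 3 (0.0540), or NPCT replicate 2 (0.0519), nor in a fit of the PCT and control libraries alone (0.0724).

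Tbcel, a relative of the folding cofactor TBCE, was a DEG with PCT, at 8.25 ± 0.74 FPKM against 12.5 ± 1.23 FPKM with vehicle, with a log2 difference of -0.59 (adjusted p = 0.0208). It had an adjusted p above 0.05 without control replicate 1 (0.0762), control replicate 3 (0.0814) or PCT replicate 2 (0.0715), and its fold change was under 1.5 without PCT replicate 3 (-0.55) and with a pseudocount of 1 (-0.54). Tbcel was also a DEG between NPCT and PCT, at 12.7 FPKM with NPCT and a log2 difference of 0.62 (adjusted p = 0.00908). Its adjusted p stayed at 0.0348 or less in all 18 alternatives, but its fold change was under 1.5 with a pseudocount of 1 (0.57) and without PCT replicate 2 (0.58), PCT replicate 3 (0.58) or NPCT replicate 3 (0.55). The other DEG of that comparison was Cdk5r2, an activator of the tau kinase CDK5, at 104 ± 6.65 FPKM with NPCT and 65.8 ± 13.2 FPKM with PCT, with a log2 difference of 0.67 (adjusted p = 0.0122). Its adjusted p over the alternatives lay between 0.00110 and 0.0519, the highest in the fit of the NPCT and PCT libraries alone, and its fold change was under 1.5 without PCT replicate 2 (0.52).

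**Figure D5:**
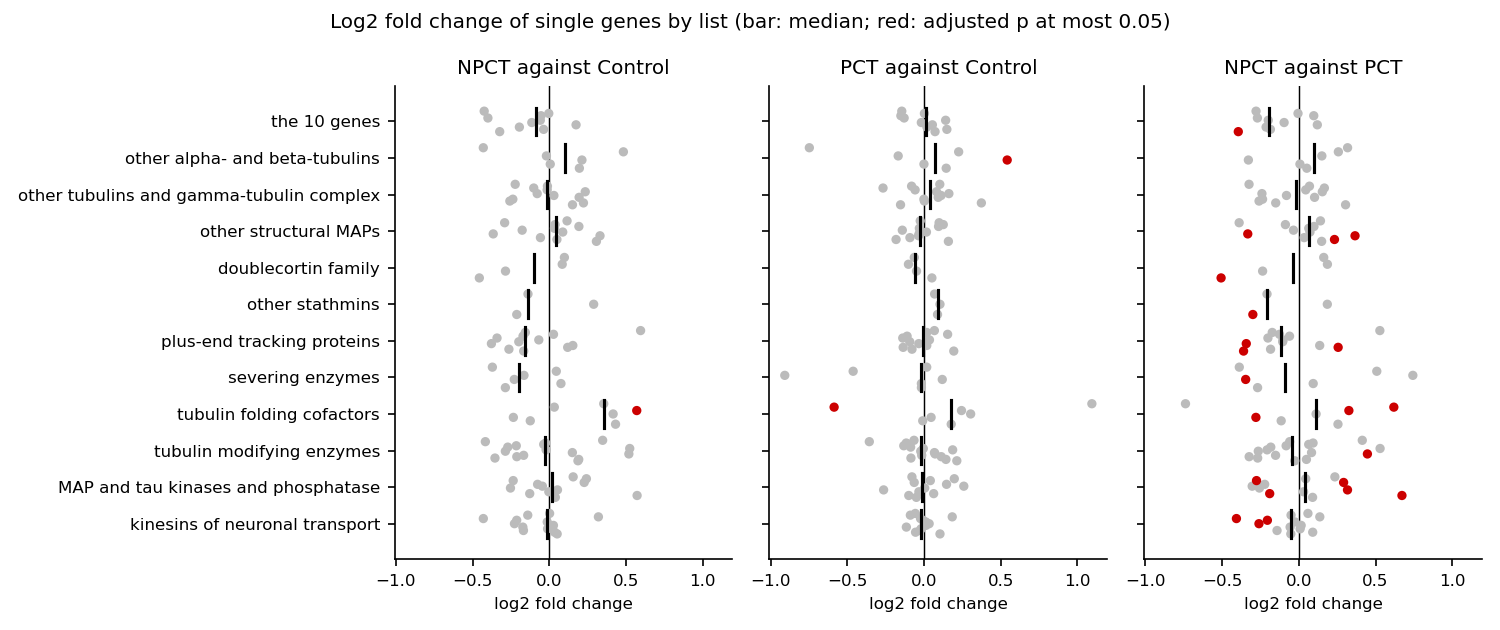
Log2 fold change (horizontal axes) of every tested gene of the 10 and of the 11 other microtubule lists in the 3 comparisons; each point is a gene, black bars are list medians and red marks an adjusted p of at most 0.05. Red points number 1, 2 and 22 from left to right, counting Tuba1a in the right panel.

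Several of the most abundant genes of these lists are partners of the 10. Stmn2, the neuronal relative of stathmin, was at 756 ± 12.5 FPKM with vehicle, 652 ± 18.2 FPKM with NPCT and 804 ± 47.2 FPKM with PCT. The log2 difference between NPCT and PCT was -0.30 (adjusted p = 0.0170, and 0.05 or less in 12 of 18 alternatives). Against vehicle Stmn2 was at -0.21 with NPCT (0.0732, and 0.05 or less in 4 of 18 alternatives) and at 0.09 with PCT (0.506). Mapre1, which encodes the plus-end binding protein EB1, was at 165 ± 3.94 FPKM with vehicle, 147 ± 2.80 FPKM with NPCT and 189 ± 4.52 FPKM with PCT. It was lower with NPCT than with PCT, with a log2 difference of -0.36 that had an adjusted p of at most 0.0286 in all 18 alternatives. Against vehicle it was at -0.17 with NPCT (adjusted p = 0.0698) and at 0.19 with PCT (0.0605). Dcx, the doublecortin of migrating neurons, was at 158 ± 1.70 FPKM with vehicle, 116 ± 14.9 FPKM with NPCT and 165 ± 21.0 FPKM with PCT. Its log2 difference between NPCT and PCT was -0.51 (adjusted p = 0.0201, and 0.05 or less in 14 of 18 alternatives). Against vehicle Dcx was at -0.46 with NPCT (0.0561, and 0.05 or less in 4 of 18 alternatives) and at 0.05 with PCT (0.864).

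The most abundant genes of the remaining lists had adjusted p above 0.05 in every comparison. They were Tubb4b, a beta-tubulin, at 184, 211 and 204 FPKM with vehicle, NPCT and PCT, and Map7d1, Mzt2b, Spast, Tbca, Sirt2, Cdk5r1 and Klc1. Among these, Klc1, a light chain of the motor kinesin, was at 218, 226 and 234 FPKM, and Cdk5r1, the main activator of CDK5, at 137, 141 and 132 FPKM.

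Some cell markers had a limma adjusted p of at most 0.05 with PCT against vehicle, beside 4.2% of all genes. None did with NPCT against vehicle, beside 0.47% of all genes. The summed level of the 12 neuronal markers was 813 to 835 FPKM with vehicle, 761 to 775 FPKM with NPCT and 731 to 803 FPKM with PCT. With NPCT against vehicle 9 of the 12 were lower and 3 higher, 6 and 2 of them without overlap, beside 40.3% of all genes. The median log2 difference was -0.14, and no adjusted p was 0.05 or less. With PCT against vehicle 7 were lower and 5 higher, with a median of -0.07 and 1 adjusted p of at most 0.05. Between NPCT and PCT the median was -0.15, with 4 passing lower and 3 higher with NPCT, beside 16.3% of all genes. The summed level of the 8 astrocyte markers was 2128 to 2315, 2052 to 2369 and 1936 to 2012 FPKM. Gfap, the largest term, was at means of 776, 843 and 919 FPKM, while the other 7 were lower with PCT than with vehicle. Of these 7, 6 had an adjusted p of at most 0.05 (4.2% of all genes) and 4 were DEGs (2.31% of all genes). The median log2 difference of the 8 was -0.46. With NPCT 4 were higher and 4 lower, with a median of 0.03 and no adjusted p of at most 0.05. The microglial markers, of which 10 were tested, summed to 27.0 to 38.8 FPKM with vehicle and 14.2 to 18.8 FPKM with PCT. With NPCT they came to 42.1, 37.9 and 175 FPKM, the last in replicate 3, where Map1b and Map2 were lowest.

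The oligodendrocyte lineage summed to 409 to 427, 439 to 455 and 354 to 368 FPKM with vehicle, NPCT and PCT. The lower sum with PCT came from Olig1, at a mean of 191 FPKM against 272 FPKM with vehicle (adjusted p = 0.00161). In contrast, 7 of the 9 markers had a log2 difference above 0 with PCT, beside 51% of all genes. Of these 7, 6 were without overlap, beside 24.9% of all genes, and the median of the 9 was 0.17. With NPCT 8 of the 9 were above 0, beside 50.8% of all genes, with a median of 0.18. The 6 fibroblast markers summed to 54.5 to 59.0, 37.8 to 41.1 and 49.6 to 71.2 FPKM, mostly through Fn1, at means of 43.4, 27.4 and 40.4 FPKM. Their median log2 difference from vehicle was -0.10 with NPCT and 0.34 with PCT. With PCT 5 of the 6 were above 0 (51% of all genes) and 1, Col3a1, was a DEG (2.31% of all genes). Proliferation markers summed to 151 to 170, 145 to 179 and 164 to 176 FPKM. Endothelial and pericyte markers summed to between 3.87 and 5.03 FPKM with Cldn5 at 0 in all libraries, and red blood cell genes were near 0. Without NPCT replicate 3, the log2 difference of NPCT from vehicle was -0.32 for both Map1b and Map2 and -0.33 for Tuba1a. Leaving out a library measures no share of cells, and the part of cell composition in the differences of the 10 genes was not tested.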

How the data were processed

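RNA of 9 libraries, 3 per group, was sequenced from poly(A)-selected RNA. Per the labels and the submitters' processing notes, the authors used HISAT2 2.0.5 on Rnor_6.0, counted with featureCounts 1.5.0-p3, and deposited 1 table of FPKM values for 34092 genes, unlogged and normalized for gene length and library. The authors also named CASAVA, StringTie 1.3.3b and DESeq2 1.20.0. The values are FPKM, so the count test of the study was replaced by limma 3.58.1 in R 4.3.3.

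Libraries were scaled by median ratios, which were equal in all of them, so that the FPKM as deposited give the same fit. The 15958 genes whose FPKM averaged 0.5 or more were fitted as log2(FPKM + 0.1) over all 9 libraries, with a mean-dependent prior and Benjamini-Hochberg adjustment over all of them. Fold changes are therefore on the log2(FPKM + 0.1) scale. Fragments were recovered as whole multiples (within 0.02) of FPKM times length, which held for 100.0% of values. The fitting was checked on simulated data. Alternatives were other pseudocounts, filters and scalings, fewer groups, a replicate block, removal of the length trend, limma-voom and leaving out each library.

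The 10 members, all named, and the gene lists were chosen with earlier results of these data known. Also named were the most abundant gene of each list, the 2 DEGs of each list with the smallest adjusted p, and the 5 genes most like Tuba1a and Map2, of which 1 is not reported here. The promoter table is RefSeq's on GRCr8, a build other than that of the expression table. Genome and protein sequences were not used here.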

Additional observations from a re-analysis of the deposited data

How the results depend on the processing

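None of the 10 genes became a DEG in any alternative. Of the 329 log2 fold changes of these genes that an alternative moved, 313 kept their direction and 16 reversed, while the adjusted p of Tuba1a, Map1b, Map2, Tubb5, Tubb2b and Stmn1 crossed 0.05 in some. The numbers of DEGs among all genes depended more on the settings. For NPCT against vehicle, the 35 DEGs became 208 with a mean FPKM of at least 1, 9 without a filter, 189 after quantile normalization, 579 with the NPCT and control libraries alone, 2 with the length trend removed, 354 with limma-voom and 0 to 562 with 1 library left out. For PCT against vehicle, leaving out 1 library gave 172 to 398 DEGs against 368, the lowest without control replicate 1, with 206 and 187 without control replicates 2 and 3. For NPCT against PCT, 919 became 454 with those libraries alone and 525 to 1623 with 1 left out, the highest without PCT replicate 3. The causes were not tested.

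The replicate numbers did not pair the libraries, with correlations of same-numbered libraries between -0.07 and 0.03, and 5 of 9 libraries closest to their own number. With the replicate block, NPCT against vehicle gave 319 DEGs. The limma adjusted p was then 0.0466 for Map1b and 0.0416 for Map2. At that threshold 7.74% of all genes passed with the block, against 0.47% without it. No other adjusted p of the 10 genes crossed 0.05 under the block.

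The reversed values were all of differences close to 0. Mapt was at 0.0800 (NPCT against vehicle) and 0.0583 (NPCT against PCT) with the length trend removed and at -0.0479 (PCT against vehicle) after quantile normalization. With 1 library left out, Mapt ranged from -0.0327 to 0.0322, from -0.0821 to 0.0632 and from -0.0667 to 0.0787 in these comparisons. Tubb2a ranged from -0.0955 to 0.0148 with NPCT against vehicle. With PCT against vehicle, Tuba1b ranged from -0.0739 to 0.0251, Tubb3 from -0.0225 to 0.148 and Tubb5 from -0.0340 to 0.116. Among the controls, Mapt and Map2 spread by a CV of 0.362% and 0.425%, less than their counting error in these libraries, of 0.566% to 0.580% and 0.580% to 0.596%.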
